A study of Mus musculus with 18 samples.

Results

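The EGF receptor family and its ligands were examined as 10 genes, the receptors Egfr, Erbb2 and Erbb3 and the ligands Egf, Tgfa, Hbegf, Areg, Ereg, Epgn and Btc, selected by gene symbol from the 18838 genes listed in any of the deposited tables. All 10 were listed at each time point. Bulk RNA was sequenced from duodenal crypts of 3 WT and 3 Mtgr1-/- mice (day 0), and from enteroids grown from the same crypts and harvested 24 h (day 1) or 72 h (day 3) after plating, giving 18 libraries, 3 per genotype and time point. Mtgr1 encodes a transcriptional co-repressor, and the mutant mice lacked it in every tissue. WT mice were Mtgr1+/+ littermates, mice of both sexes were used, and the donors of enteroids were 8 to 12 weeks old. Both genotypes were cultured in Matrigel with R-spondin, Noggin and 50 ng/ml recombinant EGF, so that EGF protein was supplied to all enteroids whatever their own Egf RNA. Each library held a mixture of epithelial cells, so fewer cells of a type and less RNA per cell cannot be told apart.

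Receptors of this family are tyrosine kinases that pair on ligand binding. EGFR binds EGF, TGF-alpha, amphiregulin, epiregulin, epigen, betacellulin and HB-EGF, ERBB2 has no known ligand of its own and acts as a partner, and ERBB3 binds neuregulins and signals through its partners because its own kinase is weak. The ligands are made as membrane proteins and released by proteases of the ADAM family, and the activated receptors pass the signal to RAS and the kinases RAF, MEK and ERK, to PI3 kinase and to STAT3. In the intestinal crypt, EGF signals drive proliferation of stem and progenitor cells, and Paneth cells are a known source of EGF.

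Of the ligand genes, 4 lie close together on chromosome 5 (GRCm38), Epgn at chr5:91027464-91035215, Ereg at chr5:91074622-91093646 and Areg at chr5:91139599-91148432 on the plus strand, and Btc at chr5:91357261-91402994 on the minus strand. From the start of Epgn to the end of Btc they spanned 376 kb, with 46.0 kb between Ereg and Areg and 209 kb between Areg and Btc. The 250 bases before the start of Areg and of Btc are shown as examples. Both genes rose in every mouse by day 1 and were higher in Mtgr1-/- enteroids at day 3. The same held for Egfr and Tgfa, whose promoters were searched but are not printed. The sequences are those of RefSeq (GRCm38.p6), read 5′ to 3′ on the strand of the gene, at chr5:91139349-91139598 for Areg and chr5:91402995-91403244 for Btc.
Areg: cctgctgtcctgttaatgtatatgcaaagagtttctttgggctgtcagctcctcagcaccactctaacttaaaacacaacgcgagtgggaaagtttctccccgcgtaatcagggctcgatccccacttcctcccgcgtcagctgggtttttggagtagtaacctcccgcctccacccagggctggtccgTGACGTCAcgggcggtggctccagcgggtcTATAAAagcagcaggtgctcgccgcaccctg
Btc: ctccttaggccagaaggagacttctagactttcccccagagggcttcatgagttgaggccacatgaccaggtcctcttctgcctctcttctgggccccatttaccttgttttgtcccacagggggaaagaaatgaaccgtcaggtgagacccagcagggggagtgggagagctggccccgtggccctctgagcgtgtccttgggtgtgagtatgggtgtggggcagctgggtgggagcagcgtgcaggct
Capitals mark matches on either strand to the cAMP response element TGACGTCA, to the TATA box TATAAA, to the AP-1 motif TGANTCA or to the TCF motif ATCAAAG, which do not overlap each other here. Areg held the cAMP response element 61 bases before its start, a match found in 1.62% of 27018 promoter windows of this length, and a TATA box 31 bases before its start, found in 13.0%. Btc, Egfr and Tgfa held none of the motifs marked by capitals, and Areg lacked the AP-1 motif (6.87% of all windows) and the TCF motif (3.23%). E-boxes (CANNTG, in 66.1% of all windows, not in capitals) numbered 2 in Areg and 3 in Btc. Of the 10 genes, 7 had a promoter in the reference table.

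In the 16 libraries whose reads could be recovered, 22035316 to 28621990 reads lay on genes. Mtgr1 RNA, listed as Cbfa2t2, was not lower in the libraries labelled Mtgr1-/-, with normalized counts of 614, 523 and 595 in WT against 697, 466 and 534 in crypts, 788, 710.2 and 757 against 1160.3, 1008 and 789 at day 1, and 869, 774 and 883 against 892, 976 and 766 at day 3. The deleted stretch was not examined, so total Mtgr1 RNA did not check the labels. Epithelial genes (Epcam, Cdh1, keratins) were abundant in all libraries, at 6617 to 12605 CPM (counts per 1000000 counts of a library) summed over 9 genes, and all 3 duodenal genes (Pdx1, Gata4, Onecut2) were detected in each. Goblet and enteroendocrine markers were lower in the libraries labelled Mtgr1-/-. There, 5 of 5 listed goblet and 7 of 7 enteroendocrine genes were called lower at every time point. Of 8 Paneth cell genes, 0 were called in crypts and 8 were called lower at day 1 and at day 3. Tuft cell genes went the other way in crypts, at 71.2 to 231 CPM over 5 genes against 45.5 to 52.6 in WT (1 called higher, 0 lower). Of 4 tested tuft cell genes, 3 were called lower at day 1 and at day 3. By immune or Paneth cell genes, 3 libraries of crypts and day 3 stood apart most. The crypt library of WT mouse 3 had 400.1 CPM over 9 immune cell genes, against 31.0 to 55.5 in the other 5 crypt libraries. The crypt library of Mtgr1-/- mouse 2 had 1888 CPM over 8 Paneth cell genes, against 62.3 and 97.4 in the other Mtgr1-/- crypts. The day 3 library of Mtgr1-/- mouse 3 had 38.3 CPM over the immune genes, against 3.01 to 5.87 in the other 5. The same mice differed at day 1. There the immune genes were at 18.8 CPM in WT mouse 3 and 24.9 in Mtgr1-/- mouse 3, against 3.14 to 8.03 in the others. Paneth cell genes at day 1 were at 260 CPM in Mtgr1-/- mouse 2, against 35.5 and 55.5 in Mtgr1-/- mice 1 and 3. Over 8 enterocyte genes, the day 3 library of Mtgr1-/- mouse 2 had 21382 CPM, against 12425 and 12287 in Mtgr1-/- mice 1 and 3.

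Mtgr1-/- libraries were set against WT libraries of the same day with limma, a linear model with moderated variances, on log2(normalized count + 1), two-sided, with p-values adjusted over all genes with a mean of at least 10, and "called" means an adjusted p under 0.05. In crypts, 0 of the 9 members that passed this filter were called, at a background of 4.73% of 12980 genes (1.58% higher and 3.15% lower), and at an unadjusted p under 0.05 there were 2, Egfr and Btc. By edgeR and DESeq2 on recovered reads, 0 members were called in crypts as well. Without the 2 crypt libraries that stood apart, which was added after the data were seen, 0 members were called either, with log2 fold changes of -0.90 for Egfr, -0.020 for Erbb2, 0.021 for Erbb3, -0.74 for Egf, 0.23 for Tgfa, 0.52 for Hbegf, -1.52 for Areg, -0.36 for Ereg and 0.42 for Btc (adjusted p = 0.0654 to 0.957). At day 1, 4 of 9 members were called, all higher in Mtgr1-/- enteroids (30.0% of 12587 genes were called higher and 28.9% lower), namely the 3 receptors and Tgfa. At day 3, 8 of 9 were called higher (29.9% of 12782 genes) and Egf was called lower (29.1% of genes). Without the day 3 library with high immune markers, the same 8 were called higher, by 0.41 (Erbb2) to 2.21 (Ereg), and Egf was not called (adjusted p = 0.0922). Cell type markers moved as well. Of 8 enterocyte genes, 7 were called higher on each day of culture (list medians 1.83 and 1.71), and 5 of 5 stem cell genes were called lower (-3.29 and -3.38). The enterocyte list also had 1 gene called lower at day 1 and 0 at day 3. In crypts, 0 of its genes were called higher and 1 lower. Their sum there was 10811 to 17524 CPM in Mtgr1-/- against 19620 to 25369 in WT. The part of these cells in the members' rises was not tested. Of the 8, the ligands Ereg, Areg, Hbegf and Btc were called and at least 2-fold higher, at a background of 11.1%. With library totals as the scale, Hbegf (0.90) and Btc (0.85) were under 2-fold. Over the 6 tested ligands, the median log2 fold change of crypts, day 1 and day 3 was 0.36, 0.0022 and 1.07, and over the 3 receptors it was -0.15, 0.51 and 0.47, beside medians over all genes of 0.0076, -0.0080 and 0.0026. Libraries of the genotypes did not overlap, in either direction, for 25.5% of genes among crypts, 68.1% of genes at day 1 and 68.8% at day 3. Epgn was listed but had a mean under 10 throughout and was not tested with this filter.

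**Figure D1:**
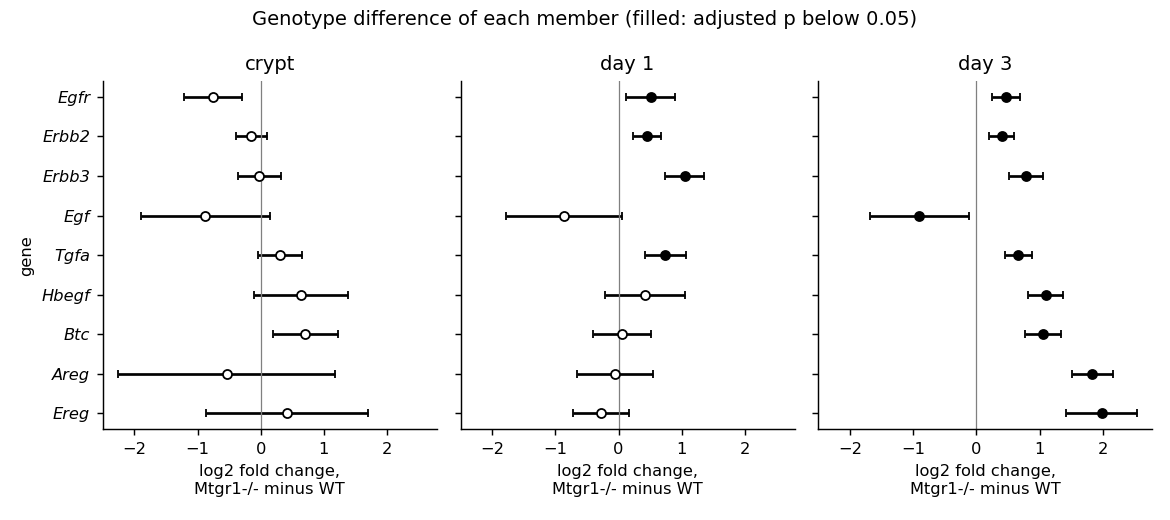
Log2 fold change of normalized count + 1 (Mtgr1-/- minus WT, x axis) of the 9 tested members (y axis) in crypts and in enteroids at day 1 and day 3. Points are estimates from 3 libraries against 3, bars are 95% confidence intervals and filled points have an adjusted p under 0.05. No member was called in crypts, 4 were called at day 1 and 9 at day 3, with Areg and Ereg farthest to the right at day 3.

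The scale set to the libraries changed some of these calls. Scaling every library to the same total shifted the median log2 fold change of all genes to -0.33 at day 1 and -0.20 at day 3. On that scale, which was added after the data were seen, 2 members were called higher at day 1 (Erbb3 and Tgfa) and 7 at day 3 (the 8 without Egfr), and Egf and Ereg were called lower at day 1. Among the genes called at day 1, the share that was higher fell from 50.9% to 28.3%, and at day 3 it fell from 50.7% to 35.2%. The values below are on the authors' scale unless given in CPM.

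Among the receptors, Erbb3 RNA was the most abundant per length and Egfr the least. Per kilobase of exon, levels in WT crypts were 51.6 ± 9.23 CPM per kb (SD, n = 3) for Erbb3, 28.0 ± 3.02 for Erbb2 and 2.71 ± 0.266 for Egfr, and the order was the same in all 6 groups. The ranges of the 3 receptors did not overlap in any group.

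Egfr, the receptor of all 7 ligands, was the receptor whose level moved most with culture. Crypt libraries had normalized counts of 853, 759 and 728 in WT against 550.03, 524 and 339 in Mtgr1-/-. All 3 Mtgr1-/- crypts lay below all WT crypts, but the log2 fold change of -0.75 ± 0.20 (SE) was not called (adjusted p = 0.0859). At day 1 the counts were 1520.0, 1259 and 1226 in WT and 2330.0, 1492 and 1946 in Mtgr1-/-, and the groups overlapped. The log2 fold change of 0.51 ± 0.17 was called (adjusted p = 0.0310), but it was not called with 4 of the 6 libraries left out (WT 2, WT 3, Mtgr1-/- 1 or Mtgr1-/- 3, adjusted p = 0.0777 to 0.0975), nor without limma's trend, nor with library totals as the scale (0.19, adjusted p = 0.236). At day 3 the counts were 1315, 1074 and 1223 in WT and 1783, 1583 and 1630 in Mtgr1-/-, with no overlap, and rose by 0.47 ± 0.098 (adjusted p = 0.00407). With library totals as the scale, that difference was 0.27 (adjusted p = 0.0811). In every mouse Egfr was higher in enteroids than in crypts, by 1.79 to 1.84-fold in WT and by 2.49 to 4.97-fold in Mtgr1-/- between crypts and day 1 (CPM, not tested). The change of the genotype difference from crypts to day 1, 1.26 ± 0.25, and that from crypts to day 3, 1.23 ± 0.25, were both called (adjusted p = 0.00213 and 0.00359). Of 12145 genes, 20.3% and 16.5% were called as changed in this direction, toward higher in Mtgr1-/-. Both use the same crypt libraries, and neither was tested with library totals as the scale.

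Erbb2, the partner receptor, had normalized counts of 3630.1, 3336 and 4191 in WT crypts and 3440, 3176 and 3425 in Mtgr1-/- crypts, which overlapped (-0.15 ± 0.11, adjusted p = 0.517). At day 1 the counts were 2825, 2679 and 2363 in WT and 3335, 3689 and 3679 in Mtgr1-/-, a rise of 0.45 ± 0.095 (adjusted p = 0.00493). By day 3, WT counts of 2824, 3024 and 3109 stood against 3651, 4293 and 3912 in Mtgr1-/-, a rise of 0.40 ± 0.085 (adjusted p = 0.00450). The day 1 rise rested on the scale. With quantile normalization it was 0.22 (adjusted p = 0.0915) and with library totals 0.13 (adjusted p = 0.350). At day 3 the call held with library totals (0.20, adjusted p = 0.0346).

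Erbb3, the neuregulin receptor, gave the largest receptor difference. In crypts the counts were 8722, 6272 and 8671 in WT and 7564, 8081 and 7441 in Mtgr1-/-, a difference of -0.020 ± 0.14 whose sign changed with the library left out. At day 1 the counts were 5497, 4441 and 4928 in WT and 10297, 8749 and 11785 in Mtgr1-/-, a rise of 1.05 ± 0.13 (2.07-fold, adjusted p = 0.000583). By day 3, WT counts of 5394, 4990.3 and 5588 stood against 8297, 10940 and 8444 in Mtgr1-/-, a rise of 0.78 ± 0.12 (1.72-fold, adjusted p = 0.000919). The enteroid groups did not overlap, and both calls held under all 17 alternatives. In CPM, all 3 WT mice had less Erbb3 at day 1 than in crypts (0.620 to 0.785 of the crypt level), while the Mtgr1-/- mice had 0.949 to 1.37 of it. The genotype difference changed by 1.07 ± 0.20 from crypts to day 1 (adjusted p = 0.00181) and by 0.80 ± 0.20 from crypts to day 3 (adjusted p = 0.0102, but 0.0542 without WT mouse 1). Neither change was tested with library totals as the scale.

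**Figure D2:**
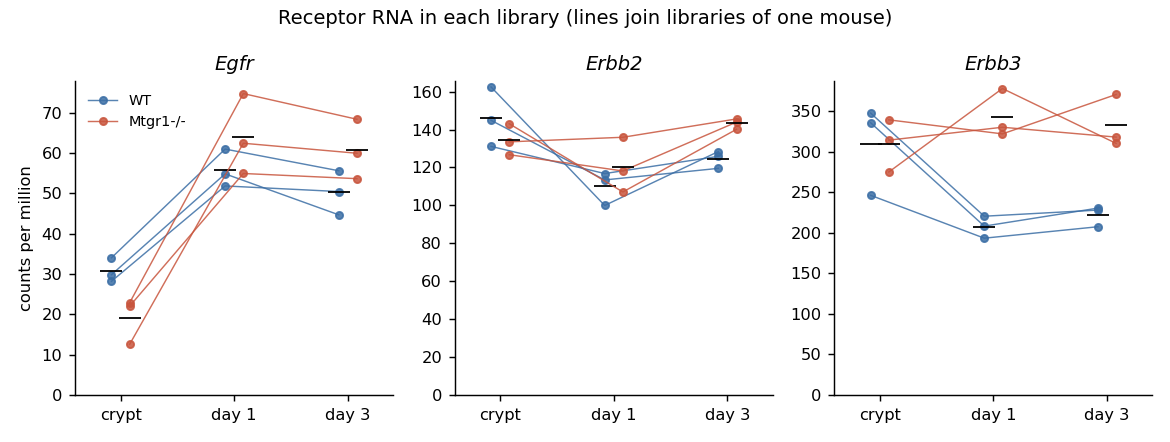
CPM (y axis, from 0) of the 3 receptors in each of the 18 libraries, by time point (x axis). Lines join the libraries of 1 mouse and black bars are means of 3. Egfr was 12.6 to 34.0 CPM in crypts and 44.7 to 74.8 in enteroids, and Erbb3 in enteroids was 194 to 231 in WT and 311 to 378 in Mtgr1-/-.

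Of the tested ligands, amphiregulin (Areg), epiregulin (Ereg) and betacellulin (Btc) rose most to a peak at day 1 in WT mice and were lower at day 3. Hbegf and Tgfa took the same course in WT mice 1, 2 and 3 with smaller rises. From crypts to day 1 these were 1.66 to 2.57-fold for Hbegf and 1.16 to 2.11-fold for Tgfa. Tgfa at day 3 was 0.766 to 0.878 of its day 1 level. Areg in WT mice 1, 2 and 3 was 15.03, 18.4 and 2.59 CPM in crypts, 128, 80.2 and 143 at day 1, and 18.9, 14.5 and 12.8 at day 3. In the Mtgr1-/- mice it was 4.19, 7.52 and 7.86 CPM in crypts, 90.0, 72.4 and 103 at day 1, and 45.5, 45.6 and 51.1 at day 3. All mice of both genotypes thus had their highest Areg at day 1. Between day 1 and day 3, Areg dropped to 0.0898 to 0.181 of its day 1 level in WT and to 0.497 to 0.630 in Mtgr1-/-, ranges that did not overlap.

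Within the tables, Areg counts in crypts were 377, 469 and 66.8 in WT and 101, 179 and 212 in Mtgr1-/-, which overlapped (-0.54 ± 0.73, adjusted p = 0.748). The lowest of these was the WT library with high immune markers, and without it the difference was -1.42 (adjusted p = 0.0800), while without WT library 2 it was -0.023 (adjusted p = 0.992) and without WT library 1 it was -0.18. Without it and the Mtgr1-/- library with Paneth genes it was -1.52 (adjusted p = 0.0654, added after the data were seen). At day 1 the counts were 3200, 1840.1 and 3378 in WT and 2803, 1966 and 3205 in Mtgr1-/-, which overlapped, and the difference of -0.057 had a 95% confidence interval of -0.66 to 0.55. At day 3 the counts were 447, 348 and 311 in WT and 1187, 1345 and 1390.1 in Mtgr1-/-, a rise of 1.84 ± 0.14 (3.57-fold, adjusted p = 4.06e-05) with no overlap. It was 1.79 without the day 3 library with immune markers and between 1.64 and 1.98 over all alternatives.

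Ereg, a ligand of EGFR and ERBB4, ran almost in parallel at a lower level. In WT mice it was 0.956, 1.63 and 0.446 CPM in crypts, 40.02, 25.8 and 37.1 at day 1, and 4.13, 2.67 and 3.24 at day 3. In Mtgr1-/- mice it was 0.940, 2.00 and 0.978 CPM in crypts, 23.2, 24.1 and 19.8 at day 1, and 12.7, 14.0 and 8.47 at day 3. From crypts to day 1 it rose by 15.8 to 83.2-fold in WT and by 12.04 to 24.6-fold in Mtgr1-/-, and by day 3 it was down to 0.0872 to 0.103 of the day 1 level in WT and 0.429 to 0.581 in Mtgr1-/-. In normalized counts at day 1, 997, 593 and 877 in WT overlapped with 722, 653 and 615 in Mtgr1-/- (-0.28 ± 0.19, adjusted p = 0.233), although with library totals as the scale Ereg was called lower (-0.60, adjusted p = 0.0195), and likewise without WT library 2 (-0.50, adjusted p = 0.0178). At day 3 the counts were 97.7, 64.1 and 78.4 in WT and 331, 413 and 230.2 in Mtgr1-/-, a rise of 1.99 ± 0.24 (3.96-fold, adjusted p = 0.000343), the largest among the members. In crypts Ereg was near the filter, at 11.5 to 47.6 counts, and the groups overlapped.

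Btc, a ligand of EGFR and ERBB4, was 4.78, 5.17 and 4.06 CPM in WT crypts, 40.2, 31.4 and 54.5 at day 1, and 19.4, 17.9 and 15.6 at day 3. In Mtgr1-/- mice it was 7.01, 10.8 and 6.20 CPM in crypts, 36.3, 35.9 and 30.7 at day 1, and 38.6, 26.4 and 31.4 at day 3. Its level at day 3 was 0.286 to 0.572 of that at day 1 in WT and 0.734 to 1.07 in Mtgr1-/-, so that in the latter group Btc showed no common direction. Counts in crypts were 120, 132 and 105 in WT and 169, 258 and 168 in Mtgr1-/-, with no overlap, and the difference of 0.71 ± 0.22 was not called (adjusted p = 0.139). At day 1, 1001, 720 and 1287 in WT overlapped with 1130.0, 975 and 956 in Mtgr1-/- (0.061 ± 0.20, adjusted p = 0.805). At day 3 the counts were 459, 431 and 378 in WT and 1007, 777 and 854 in Mtgr1-/-, a rise of 1.05 ± 0.13 (2.07-fold, adjusted p = 0.000304).

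**Figure D3:**
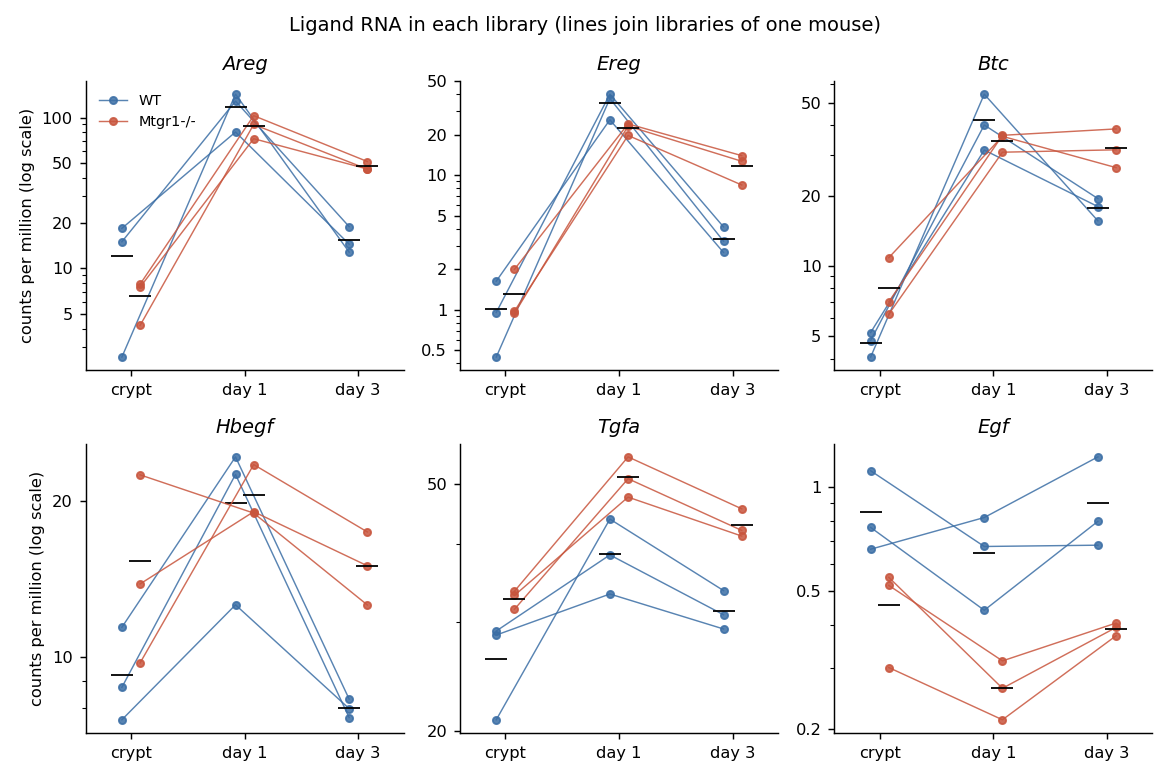
CPM (y axis, log scale, different in each panel) of the 6 tested ligands in each of the 18 libraries, by time point (x axis). Lines join the libraries of 1 mouse and black bars are means of 3. Areg, Ereg, Btc and Tgfa rose in all 6 mice between crypts and day 1. At day 3 the lowest Mtgr1-/- library lay above the highest WT library for all panels but Egf, where it was reversed.

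Whether the genotype difference changed between day 1 and day 3 depended on which libraries set the spread. Over all 18 libraries, the difference (Mtgr1-/- minus WT) rose by 2.26 ± 0.53 for Ereg (adjusted p = 0.136), 1.89 ± 0.74 for Areg (adjusted p = 0.557) and 0.99 ± 0.28 for Btc (adjusted p = 0.260). In that fit 0 of 9 members were called, at a background of 4 genes or 0.0329%. Without adjustment, 3 members (Ereg, Areg and Btc) had a p under 0.05 in that limma model. The crypt libraries, in which Areg ranged from 66.8 to 469 counts within WT, set part of the spread in that fit. Fitted to the 12 enteroid libraries alone, an alternative added after the data were seen, the same changes were called for Ereg (95% confidence interval 1.504 to 3.03, adjusted p = 0.0199) and Areg (1.15 to 2.63, adjusted p = 0.0388), but not for Btc (0.42 to 1.56, adjusted p = 0.145), with 61 of 12432 genes called (0.491%). Over all time points but without Mtgr1-/- mouse 2, those of Ereg (2.06, adjusted p = 0.0412) and Btc (1.05, adjusted p = 0.0382) were called and that of Areg was not (adjusted p = 0.228). Across the fits that left out 1 mouse, the background for this change was 0 to 879 genes called. Against crypts, the day 3 difference had risen by 2.38 ± 0.74 for Areg (adjusted p = 0.0250) and 1.57 ± 0.53 for Ereg (adjusted p = 0.0351). Neither call was firm. That of Areg was lost without any 1 of WT mouse 1 or 2 or Mtgr1-/- mouse 1, 2 or 3 (adjusted p = 0.0502 to 0.107). That of Ereg was lost without WT mouse 1 or 2 or Mtgr1-/- mouse 1 or 3 (adjusted p = 0.0590 to 0.163) and with quantile normalization (1.296, adjusted p = 0.118).

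**Figure D4:**
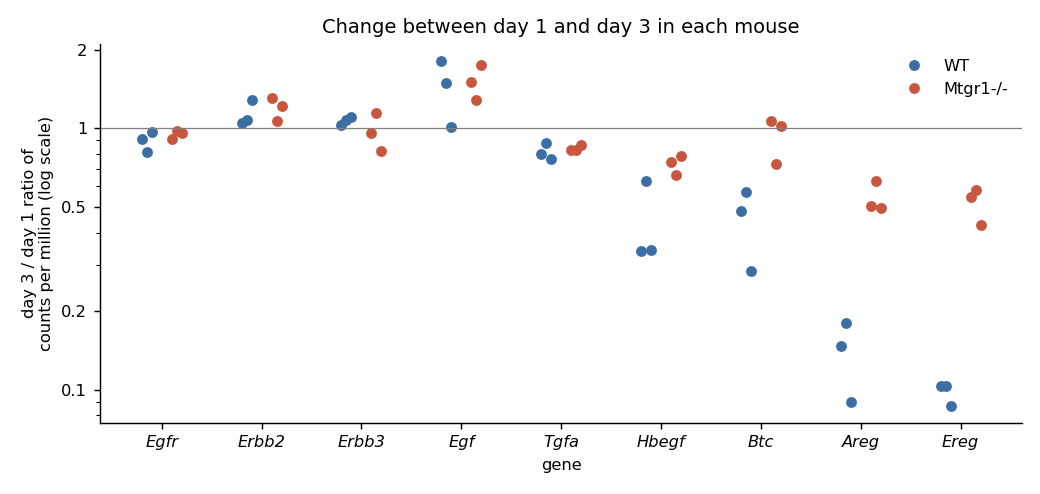
Ratio of CPM at day 3 to day 1 (y axis, log scale) in each of the 6 mice for the 9 tested members (x axis). For Ereg, Areg, Btc and Hbegf the 3 WT mice lay below the 3 Mtgr1-/- mice, with WT Ereg at 0.0872 to 0.103, while the genotypes overlapped for the receptors, Egf and Tgfa.

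Hbegf, a heparin-binding ligand of EGFR and ERBB4, had crypt counts of 219, 193 and 295 in WT and 235, 534 and 374 in Mtgr1-/-, which overlapped (0.63 ± 0.31, adjusted p = 0.345). The highest of these came from the Mtgr1-/- crypt library with Paneth genes, and without it the difference was 0.35. At day 1 the counts were 559.7, 289.5 and 574 in WT and 731, 514 and 593 in Mtgr1-/- and overlapped as well (0.42 ± 0.27, adjusted p = 0.213). By day 3, WT counts of 181, 191 and 201 stood against 454, 372 and 408 in Mtgr1-/-, a rise of 1.10 ± 0.12 (2.14-fold, adjusted p = 0.000210). In CPM, Hbegf fell in all 6 mice from day 1 to day 3, to 0.341 to 0.632 of the day 1 level in WT and 0.666 to 0.787 in Mtgr1-/-.

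Tgfa, which encodes TGF-alpha, was higher in Mtgr1-/- enteroids on both days. Its crypt counts were 726, 727 and 538 in WT and 808, 748 and 894 in Mtgr1-/-, with no overlap, and the difference of 0.31 ± 0.15 was not called (adjusted p = 0.331). At day 1 the counts were 958, 763 and 1039 in WT and 1726, 1386 and 1486 in Mtgr1-/-, a rise of 0.74 ± 0.14 (1.67-fold, adjusted p = 0.00285). By day 3, WT counts of 728, 702 and 816 stood against 1190.1, 1243 and 1122 in Mtgr1-/-, a rise of 0.66 ± 0.092 (1.58-fold, adjusted p = 0.000618). The difference between crypts and either day of culture was not called (0.43 with adjusted p = 0.0803, and 0.35 with adjusted p = 0.164). Without WT mouse 3, whose crypt library had high immune markers, both changes were called (0.67 with adjusted p = 0.0178, and 0.56 with adjusted p = 0.0419). Both enteroid calls held under all 17 alternatives.

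Egf was the 1 member lower in all Mtgr1-/- groups, and it was scarce. Its normalized counts were 19.2, 16.8 and 28.8 in WT crypts against 13.2, 12.4 and 8.13, then 11.0, 18.7 and 15.9 against 8.16, 8.53 and 6.62 at day 1, and 18.8, 29.4 and 16.5 against 10.2, 11.9 and 10.1 at day 3. The groups did not overlap at any time point. The log2 fold changes were -0.88 ± 0.43, -0.86 ± 0.40 and -0.90 ± 0.34 (adjusted p = 0.342, 0.0950 and 0.0495), and the only call, at day 3, was lost in 12 of 17 alternatives, including with each library left out (adjusted p = 0.0592 to 0.186). The 8 Paneth cell genes were lower as a sum at each time point. In crypts not every gene was lower, with log2 fold changes up to 0.081. Their sum was 5034 to 6739 CPM in WT crypts and 62.3 to 1888 in Mtgr1-/- crypts, 2801 to 3151 against 35.5 to 260 at day 1 and 4146 to 5268 against 104 to 317 at day 3, with 8 of 8 genes called lower at both days of culture and 0 of 8 in crypts. The part of these cells in the lower Egf was not tested. The Mtgr1-/- crypt library that kept Paneth genes had 12.4 Egf counts, between the 2 other Mtgr1-/- crypts. This is 1 library with few counts, and no conclusion is drawn from it.

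Epgn, the epigen gene, reached at most 7.32 normalized counts. At day 1 it was 7.32, 3.12 and 5.03 in WT and 1.17, 1.90 and 0 in Mtgr1-/-, while in crypts 0.958, 1.98 and 1.15 in WT overlapped with 4.71, 1.90 and 4.07. These values rest on a few reads per library and were not tested in the main fits. In the alternative without the filter, Epgn was the 1 member that limma called lower at day 1.

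Summed over the 7 ligands, RNA in WT was 54.0 ± 11.8 CPM (SD, n = 3) in crypts. It was 253 ± 61.6 at day 1 and 76.6 ± 4.53 by day 3, and in Mtgr1-/- it was 64.5 ± 9.45, 217 ± 13.2 and 149.8 ± 9.76. Areg made up 43.5 to 47.5% of that sum in WT at day 1 and 17.2 to 23.1% at day 3, against 35.7 to 46.7% and 28.4 to 34.6% in Mtgr1-/-. The 3 receptors together were 397 ± 16.6 CPM in WT and 537 ± 29.2 in Mtgr1-/- at day 3. Per kilobase of exon, Areg was the most abundant ligand in enteroids (96.4 ± 27.0 CPM per kb in WT and 72.8 ± 12.6 in Mtgr1-/- at day 1, 12.7 ± 2.59 and 39.0 ± 2.65 at day 3). By this length it could not be told apart from Tgfa in crypts, with 9.89 ± 6.87 against 4.03 ± 0.707 in WT and 5.37 ± 1.67 against 5.04 ± 0.176 in Mtgr1-/-. Per kilobase of the longest coding transcript, Tgfa was 5.77 ± 1.01 in WT crypts, which overlapped with Areg. In Mtgr1-/- crypts it was 7.23 ± 0.252 and lay above Areg with no overlap (6.94 to 7.42 against 3.45 to 6.47). Egf was the least abundant of the tested ligands in every group, at 0.0233 to 0.0798 CPM per kb.

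Across the 18 libraries, Areg was the gene whose log2(CPM + 1) followed Ereg most closely (Pearson r = 0.958), followed by Cldn4 and F3, out of 10589 genes with a mean of at least 50 in each table. Ereg itself had a mean under 50 in crypts, so it was not among the genes searched for the other members. Of the genes searched, those nearest to Areg were Tuba1c, Cldn4 and Nploc4 (0.919 to 0.922), below its 0.958 with Ereg. Those nearest to Btc were Krt18, Tnfrsf12a and Myo1c (0.982 to 0.990). Egfr followed Acap2 (0.967), Epn3 and Pdlim5, Tgfa followed Cers2 (0.967), Efl1 and Nadk, and Hbegf followed Lrrfip1 (0.882), Myo1e and Ccdc71l. The genes nearest to Erbb2 were Bmf, Rab43 and Ulk2 (0.859 to 0.888), those nearest to Erbb3 were Cyp4f13, Slc35a5 and Scp2 (0.903 to 0.908), and those nearest to Egf were Myrfl, Rhoq and Rogdi (0.890 to 0.897). The 18 points share time points, genotypes and mice, so these values describe the libraries and were not tested. Among other genes near the ligands on chromosome 5, Mthfd2l, which lies beside Epgn, was lower in Mtgr1-/- enteroids, with log2 fold changes of -0.57 and -0.37 (adjusted p = 0.0362 for day 1 and 0.0278 for day 3). The lincRNA gene Gm19619, between Areg and Btc, had mean normalized counts of 2.396, 19.9 and 6.01 in WT crypts, day 1 and day 3 enteroids and 1.94, 13.7 and 14.2 in Mtgr1-/-, and its difference of 1.29 at day 3 was not called (adjusted p = 0.0698).

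The remaining genes of the pathway were described by lists. Of ERBB4 and the 4 neuregulins, Nrg4 alone passed the filter. Erbb4 was at 1.92 counts in 1 WT crypt library and 0 in the other 5, Nrg1, Nrg2 and Nrg3 stayed under 3 counts, and Nrg4 was not called at any time point (108 ± 106 counts in WT and 33.3 ± 4.58 in Mtgr1-/- crypts, where the WT library with immune markers held 230.2).

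Of the 8 genes for ligand shedding and trafficking, day 1 gave 3 called higher and 2 lower and day 3 gave 3 and 1, with medians of 0.093 and 0.12. Over all genes, day 1 gave 30.0% called higher and 28.9% lower and day 3 gave 29.9% and 29.1%. With library totals as the scale these were 1 higher and 4 lower, and 2 and 2. Frmd8, which stabilises the sheddase complex of iRhom and ADAM17, was 1741, 1631 and 1578 in WT and 3203, 2856 and 3491 in Mtgr1-/- at day 1 (0.94 ± 0.097, adjusted p = 0.000284) and rose by 1.09 ± 0.12 at day 3. Adam9 rose by 0.59 at day 3. Adam15, a membrane protease, was lower at all time points, with log2 fold changes of -0.75, -1.08 and -0.66 (adjusted p = 0.0174, 0.000831 and 0.00262). Rhbdf1, which encodes iRhom1, was called higher in crypts (0.96, adjusted p = 0.0493), and Rhbdl2, a rhomboid protease, lower at day 1 (-0.81, adjusted p = 0.0267). The crypt calls of Adam15 and Rhbdf1 and the day 1 call of Rhbdl2 were lost with some single libraries left out. Over all alternatives, that of Rhbdf1 was lost in 12 of 18, that of Adam15 in 4 of 18 and that of Rhbdl2 in 4 of 17.

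Of the 14 genes for receptor restraint, day 1 gave 6 called higher and 3 lower, day 3 gave 5 and 3 and crypts gave 0, with medians of 0.20, 0.18 and 0.014, beside the same shares over all genes. With library totals as the scale, day 1 gave 2 higher and 6 lower and day 3 gave 3 and 3. Lrig1, a membrane protein that lowers the level of ERBB receptors and also marks intestinal stem cells, fell most. It was 4541, 4567 and 4511 counts in WT and 1480, 1733 and 1326 in Mtgr1-/- at day 1 (-1.59 ± 0.11, adjusted p = 7.15e-05), and it fell by 1.30 on the log2 scale at day 3. Errfi1, an inducible inhibitor of EGFR, rose by 0.99 ± 0.20 at day 1 and 1.11 ± 0.094 at day 3 (adjusted p = 5.92e-05), and Cblc, an epithelial ubiquitin ligase for EGFR, rose by 0.93 at day 3. Socs5 was called lower at day 1 (-0.97, adjusted p = 0.0257), a call lost with 4 of the 6 libraries left out in turn. The 5 stem cell genes (Lgr5, Ascl2, Olfm4, Smoc2, Axin2) moved with Lrig1, at 1019 to 2064 CPM in WT and 24.2 to 36.3 in Mtgr1-/- at day 1 and 3360.0 to 4183 against 36.1 to 75.4 at day 3. Their part in the lower Lrig1 was not tested.

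Of 28 adaptor and kinase genes, day 1 gave 7 called higher and 1 lower and day 3 gave 6 and 2, shares below the backgrounds of 30.0% and 29.9%, with medians of 0.099 and 0.097. The balance rested on the scale, since library totals gave 5 higher and 12 lower for day 1 and 5 and 9 for day 3. Map2k1 and Map2k2, which encode the kinases MEK1 and MEK2, rose by 0.94 and 0.73 at day 1 and by 0.56 and 0.68 at day 3. Stat3, a transcription factor activated by EGFR and by cytokine receptors, was 1569, 1452 and 1509 in WT and 2877, 3521 and 3045 in Mtgr1-/- at day 3 (1.06 ± 0.092, adjusted p = 6.91e-05).

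Of 16 genes for ERK output and feedback, day 1 gave 3 called higher and 6 lower and day 3 gave 5 and 5, with medians of -0.16 and 0.033. The day 3 shares are near those of all genes (29.9% higher and 29.1% lower). With library totals as the scale, day 1 gave 2 higher and 10 lower and day 3 gave 5 and 6. Called higher at day 3 were Emp1 (1690.4, 1174 and 1962 in WT, and 10355, 11976 and 8416 in Mtgr1-/-, a rise of 2.69 ± 0.20, adjusted p = 3.12e-05), Fosl1, an AP-1 subunit (21.5, 26.7 and 27.1 against 182, 114 and 127, a rise of 2.42 ± 0.24, adjusted p = 0.000115), the ERK phosphatases Dusp6 and Dusp5 and the ephrin receptor Epha2. Called lower were the transcription factors Etv1, Etv4 and Etv5 and the pathway inhibitors Spred1 and Spry1. Etv1 was 37.6, 33.8 and 37.8 counts in WT and 0, 2.98 and 0 in Mtgr1-/- at day 3, and it was called lower in crypts as well (adjusted p = 0.0237). Etv5 fell by 2.04 on the log2 scale and Dusp6 rose by 1.65 ± 0.42 at day 1. Spry4 was called higher in crypts (1.66 ± 0.35, adjusted p = 0.0458), a call lost with each library left out. In both days of culture, enterocyte genes moved with the rises, at 10246 to 12763 CPM over 8 genes in WT and 14922 to 20145 in Mtgr1-/- at day 1 and 7589 to 8670 against 12287 to 21382 at day 3, and their part was not tested.

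**Figure D5:**
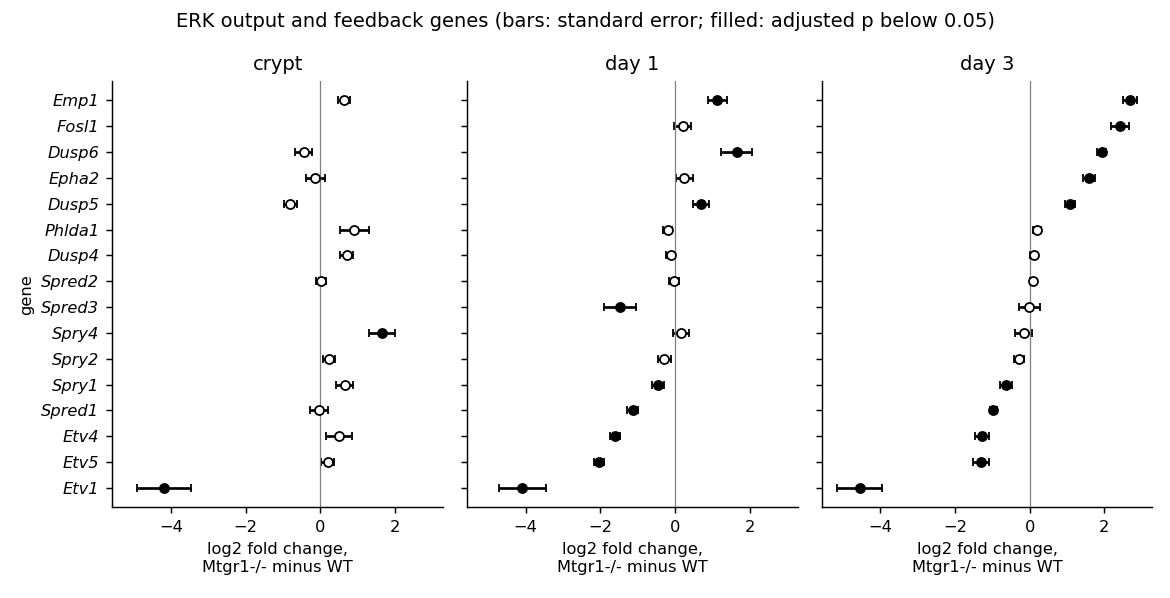
Log2 fold change of normalized count + 1 (Mtgr1-/- minus WT, x axis) of 16 ERK output and feedback genes (y axis, ordered by day 3) for crypts and both days of culture. Bars are standard errors, filled points have an adjusted p under 0.05, and Fosl1 and Spred3 were not tested in crypts. At day 3, 5 genes from Dusp5 up to Emp1 were called higher and 5 from Spry1 down to Etv1 lower.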

How the data were processed

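Members and gene lists were chosen with earlier results of these data known. The authors made stranded mRNA libraries, trimmed reads with fastp 0.20.0, quantified them with Salmon 1.3.0 against mouse GENCODE transcripts and normalized with DESeq2 1.26.0. The deposited signal is a gene's count over the size factor of its library, 1 table per time point. The deposited mean signal, log2 fold changes with errors, Wald score and p-value columns hold the authors' own comparisons and were not used.

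Genotypes (3 mice each) were tested within a table by limma 3.58.1 in R 4.3.3, with an intensity trend, on log2(normalized count + 1) where the mean was 10 or more, with Benjamini-Hochberg adjustment. Log2 fold changes of low genes are understated on this scale. An exact permutation of 3 against 3 cannot go below p = 0.1, so limma's p was used. Changes of the genotype difference were fitted to 18 libraries, the mouse being a random term (correlation -0.0048). Levels across tables are CPM, counts per 1000000 listed counts, and were not tested. Lengths are exon unions of GENCODE M21 unless the longest coding transcript is named. The fits were tested on simulated data.

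Reads were rebuilt from the smallest step between values of a library (100% whole within 0.01 read). In the crypt library of WT mouse 2 and the day 3 library of Mtgr1-/- mouse 2 the step was too near 1 to check, so edgeR 4.0.16 and DESeq2 1.42.0 were run on the other 16. Other alternatives left out each library, set the pseudocount to 0.1 or 8, changed or dropped the filter, rescaled by median ratios, quantiles or library totals, dropped the trend, or added the mouse number as a block. Library totals, leaving out both deviating crypt libraries and the fit to enteroids alone were added after the data were seen.

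Named genes were the members, up to 3 called genes with the largest change per list and time point, and the 3 genes nearest to each member. The other called genes of the ERK list at day 3, Mthfd2l and Gm19619 were named after their values were seen. Deviations of same-numbered mice correlated at 0.116, 0.231 and 0.216 at day 1, where the numbers pair the genotypes, at 0.0764, 0.274 and 0.346 in crypts and at -0.0067, -0.0023 and -0.016 at day 3.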

Additional observations from a re-analysis of the deposited data

Results flagged for a closer look

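On the authors' scale, a test of the change itself called the genotype difference (Mtgr1-/- minus WT, log2) as changed between crypts and day 1 for 3 members. Between crypts and day 3 it called 5 members. All of these changes were toward higher in Mtgr1-/-. Over all 12145 genes, 20.3% by day 1 and 16.5% by day 3 were called in that direction. That test was not run with library totals as the scale. On library totals, the differences in crypts and at day 1 were -0.72 and 0.19 for Egfr, -0.12 and 0.13 for Erbb2, and 0.0097 and 0.73 for Erbb3. The changes that follow are on the authors' scale. From crypts to day 1 it changed by 1.26 for Egfr, 0.59 for Erbb2 and 1.07 for Erbb3. From crypts to day 3 it changed by 2.38 for Areg, 1.23 for Egfr, 0.55 for Erbb2, 1.57 for Ereg and 0.80 for Erbb3. For Egfr the estimate was below 0 in crypts and above 0 at both days of culture, and in each of the 3 Mtgr1-/- mice Egfr rose more from crypts to day 1 (2.49 to 4.97-fold) than in any WT mouse (1.79 to 1.84-fold). The day 3 calls of Areg and Ereg were each lost when single mice were left out. Without WT mouse 1, WT mouse 2 or Mtgr1-/- mouse 1, 2 or 3, the adjusted p for Areg was 0.0502 to 0.107, and without WT mouse 1 or 2 or Mtgr1-/- mouse 1 or 3 the adjusted p for Ereg was 0.0590 to 0.163. No group had more than 3 libraries, so single libraries could not be tested as outliers.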

How the results depend on the processing

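At day 3 the rises of Erbb2, Erbb3, Tgfa, Hbegf, Areg, Ereg and Btc were called under all 17 alternatives and that of Egfr under 16. Few reads limit Egf, Epgn and crypt Ereg. The causes of the changes below were not tested. Crypt genes called (614) were 209 by edgeR, 1200.0 by DESeq2, 1133 without the crypt libraries of WT mouse 3 and Mtgr1-/- mouse 2, and 176 to 608 with 1 library left out. Members called lower at day 1 (0) were 1 without the filter (Epgn), 1 without the trend (Egf), 2 with library totals and 0 to 1 with 1 left out. Those called higher (4) were 2 with library totals. The member called lower at day 3 was lost (0) with a pseudocount of 0.1, no filter, quantile normalization, edgeR, DESeq2 and 1 left out (0 to 0), and with the mouse number as a replicate block (0, Egf adjusted p = 0.0661), which ended no other call of a member at 1 time point. Genes whose genotype difference changed from day 1 to day 3 (4) were 16 with a pseudocount of 8, 20 with quantile normalization, 1 with the replicate block, 61 in enteroids alone and 0 to 879 with 1 mouse left out, and members 2 in enteroids alone and 0 to 2. From crypts, 3333 to 5549 genes and 3 to 5 members changed by day 1 and 1657 to 3712 genes and 2 to 6 members by day 3 with 1 mouse left out.

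With library totals, day 1 gave 1 shedding gene higher and 4 lower, and day 3 gave 2 and 2. Restraint genes gave 2 and 6 at day 1 and 3 higher at day 3, adaptor genes 12 and then 9 lower, and ERK genes 2 higher and 10 lower at day 1 with 0 higher in crypts. With quantile normalization, 1 shedding gene was lower at day 1, 5 and then 7 adaptor genes were lower, and 0 ERK genes were higher in crypts.

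Signs turned only for log2 differences that were not called. Erbb3 in crypts was 0.0097 with library totals, 0.021 without both crypt libraries and -0.18 to 0.060 with 1 left out, and Ereg in crypts -0.36 without both and -0.047 to 0.84. At day 1, Areg was -0.34 to 0.15, and Btc -0.16 to 0.26, -0.0059 by edgeR and -0.26 with library totals. Changes from crypts to day 1 were -0.16 to 0.32 for Egf (-0.0047 with a pseudocount of 0.1), -0.66 to 0.19 for Hbegf and -0.31 to 1.52 for Areg, and the change of Egf to day 3 was -0.41 to 0.36. From day 1 to day 3 they were -0.17 to 0.063 for Egfr (0.017 with quantile normalization), -0.14 to 0.059 for Erbb2, -0.25 to 0.093 for Egf and -0.18 to 0.0073 for Tgfa.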
